A study of Mus musculus with 3 samples.

Results

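The gene set described here comprises 10 genes of the lysosomal proteolytic system: the cysteine cathepsins Ctsb, Ctsc, Ctsh, Ctsk, Ctsl, Ctss and Ctsz, the asparaginyl endopeptidase legumain (Lgmn), the aspartic protease cathepsin D (Ctsd) and the protease inhibitor cystatin C (Cst3). The genes were taken by name from the 32886 gene columns of the count table and all 10 were found. Immune cells were sorted from 3 dissected kidney compartments, the cortex, the outer medulla (abbreviated OM) and the inner medulla (IM), of male wild-type C57BL/6J mice aged 10 weeks that had received no treatment, and single-cell RNA libraries were made in droplets. Each compartment was processed at 3 facilities, Aachen, Bonn and Hamburg, which gave 9 sets of cells, called libraries here, and a facility served as the replicate. No group carried a genetic change or an agent, and the number of mice behind each library was not given in the sources used here. In the main fits, p-values therefore measure the spread among libraries that remained once facility was taken out as a block. They do not measure a spread between mice. Resident macrophages were the 4 clusters that the authors named Macrophage_1, Macrophage_2, Macrophage_3 and Isg+_Macrophage.

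Lysosomal cathepsins are made as inactive proenzymes, are sorted to the acidic endosome and lysosome, and there degrade endocytosed and autophagic protein. In antigen-presenting cells the same enzymes trim antigens and remove the invariant chain from MHC class II molecules, and they cleave endosomal Toll-like receptors into their signaling form. Cystatin C is a secreted protein that blocks papain-family cathepsins and legumain reversibly, while the aspartic protease cathepsin D is not among its targets. In the clinic, cystatin C in blood is used as a marker of kidney filtration.

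The members lie on several chromosomes of GRCm38.p6, the mm10 build. Ctsk (chromosome 3, 95499210 to 95509387) and Ctss (chromosome 3, 95526786 to 95556405) are neighbors 17.4 kb apart on the plus strand. In the GENCODE annotation of this build Ctsb, Ctsc, Ctsl and Ctsz overlap genes of the opposite strand (Fdft1, Gm26522, Gm47123 and Nelfcd). On the same strand, Ctsl and Ctss overlap processed pseudogenes (Gm49230 and Hmgb1-ps5), and Ctsd overlaps the protein-coding gene Gm49369. Counts of Ctsl, Ctss and Ctsd may therefore hold reads that cannot be assigned with certainty. The 3 promoters below were chosen because Cst3 was the member that differed between compartments, Ctsd was the member with a cluster pattern unlike the others, and Lgmn shares with Ctsd a motif named for lysosomal genes. Each sequence is the 250 bases before the RefSeq start of the gene, 5′ to 3′ on the minus strand, on which all 3 genes are transcribed. Capitals mark CACGTG, the core of the CLEAR motif bound by the lysosomal regulator TFEB and by other E-box factors. For Lgmn the table holds 2 starts and the window of the one with the motif is shown. This window lies inside the annotated span of Lgmn (chromosome 12, 102394082 to 102439728), so the start shown lies downstream of the 5′ end of that span. The windows are chr2:148875513-148875762 for Cst3, chr7:142387828-142388077 for Ctsd and chr12:102439093-102439342 for Lgmn.
Cst3: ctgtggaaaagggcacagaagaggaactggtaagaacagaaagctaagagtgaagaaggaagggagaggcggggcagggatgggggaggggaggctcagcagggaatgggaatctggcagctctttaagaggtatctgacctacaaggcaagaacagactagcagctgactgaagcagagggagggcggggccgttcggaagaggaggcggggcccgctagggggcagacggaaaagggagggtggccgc
Ctsd: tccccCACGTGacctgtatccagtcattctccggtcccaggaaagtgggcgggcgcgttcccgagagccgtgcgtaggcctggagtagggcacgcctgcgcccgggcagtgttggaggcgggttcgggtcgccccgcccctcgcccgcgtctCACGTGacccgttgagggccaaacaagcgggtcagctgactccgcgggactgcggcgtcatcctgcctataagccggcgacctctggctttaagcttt
Lgmn: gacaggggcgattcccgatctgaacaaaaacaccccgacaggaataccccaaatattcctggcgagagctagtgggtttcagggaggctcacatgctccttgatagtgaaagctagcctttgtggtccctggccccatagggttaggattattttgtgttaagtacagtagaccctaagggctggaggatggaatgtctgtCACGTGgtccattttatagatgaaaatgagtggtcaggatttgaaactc

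The Ctsd window held CACGTG at −245 and −98 relative to the start, and the Lgmn window held it at −49. The Cst3 window held none. CACGTG reads the same on both strands. Over the RefSeq windows that run on to 50 bases past the start, it was found in 1978 of 32851 promoters (6.02%). The table held 9 promoters of 8 members, and CACGTG was found in 3 of these 9, those of Ctsd, Lgmn and Ctsl. The longer GTCACGTG, searched on both strands and overlapping CACGTG by construction, was found in 607 promoters (1.85%) and in 2 of the 9 member promoters, those of Ctsd and Lgmn. Ctsb and Ctsh were not in the promoter table. These matches describe letters in a window and are not evidence of binding.

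The table held 20266 cells in 23 clusters named by the authors, and 59141039 unique molecular identifiers (UMIs, which count captured transcripts). Libraries ranged from 621 to 3677 cells, from 2122809 to 15267126 UMIs and from 744 to 3505 median UMIs per cell, with the lowest depth in Aachen, which used an earlier version of the 10x chemistry than Bonn and Hamburg, so facility and chemistry cannot be told apart. A pair of libraries shared at most 16 cell barcodes between facilities and, within a facility, 1 to 8 in Aachen and Bonn but 0 in Hamburg. The barcodes carried 2 suffixes per compartment in Aachen and 1 per compartment in Bonn, whereas all Hamburg cells carried 1 common suffix, so whether the 3 Hamburg compartments were separate droplet runs is not known. The 12 resident macrophage markers made up 200 to 290 of every 10000 UMIs in the resident macrophages, 24.8 to 51.5 in monocytes and 0.757 to 24.8 in T cells, so the class carried the markers of its name. Levels are given as CPM, the UMIs of a gene summed over the cells of a cluster in a facility and scaled to a total of 1000000 UMIs, with mean ± SD over facilities.

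Across clusters the members were high in mononuclear phagocytes, with 3 exceptions. Of the 9 members with more than a few UMIs, 5 had their highest mean in a macrophage cluster, namely Ctsc, Ctsh, Ctss, Ctsz and Lgmn. Cst3 peaked in conventional type 1 dendritic cells (cDC1), Ctsb and Ctsl peaked in plasmacytoid dendritic cells (pDC), and Ctsd peaked in natural killer (NK) cells. Ctsk, a collagen-degrading protease best known from osteoclasts, was nearly absent, with 2 UMIs in Macrophage_1, 1 UMI in Malat+_Macrophage and 0 in the other clusters. Cluster levels are a description without a test, because the clusters were made from the same cells.

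**Figure D1:**
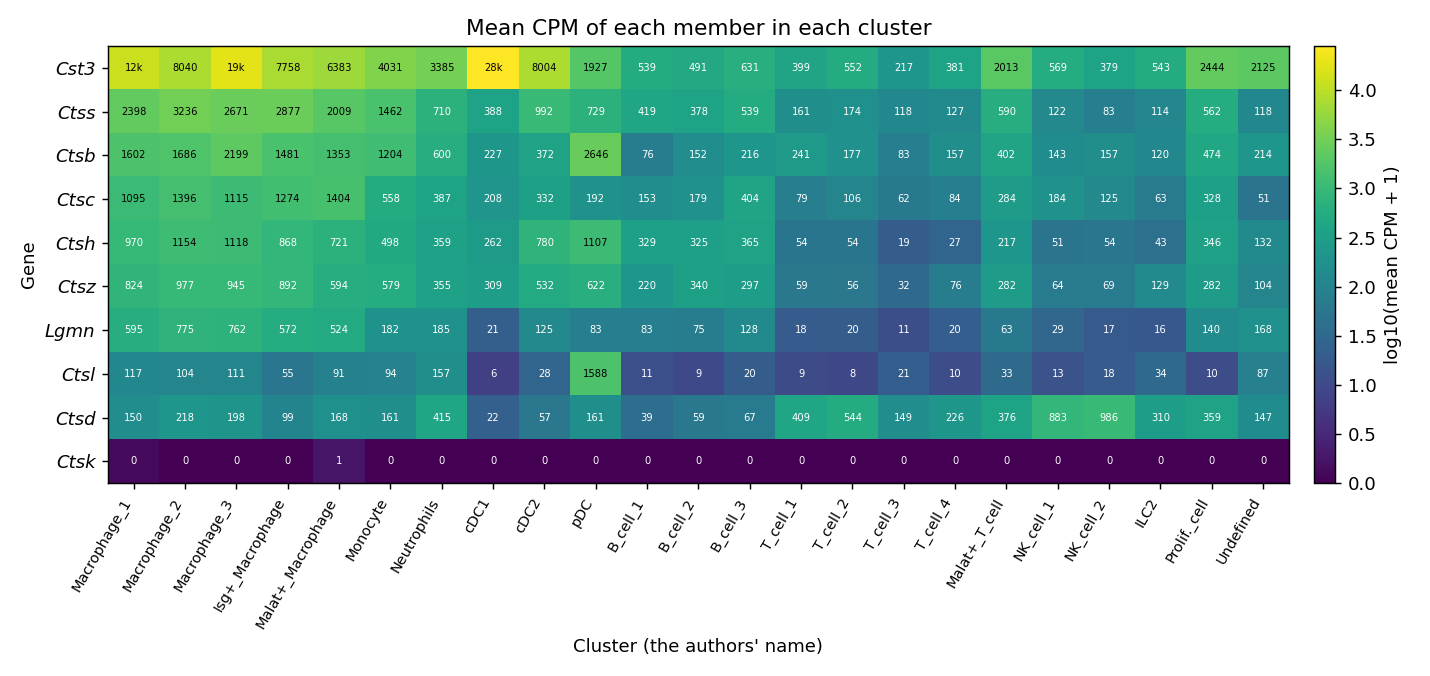
Mean CPM over facilities of each member (rows) in each cluster (columns), printed in the cells (12k, 19k and 28k for 12336, 18814 and 28267) and colored as log10(mean CPM + 1). The 7 members from Cst3 to Lgmn are brightest in the columns of macrophages, monocytes and dendritic cells, Ctsl stands out in pDC at 1588 CPM, and Ctsd is highest in NK_cell_2 at 986 CPM.

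Cst3, the inhibitor, was at 28232 CPM in the cDC1 of Aachen, 29201 at Bonn and 27367 at Hamburg (28267 ± 917, SD, n = 3). The next cluster was Macrophage_3 with 22456, 16871 and 17114 CPM (18814 ± 3157), and Macrophage_1 followed with 12712, 15683 and 8613 CPM (12336 ± 3550). The 3 clusters did not overlap in their facility values. From Macrophage_1 downward the neighbors overlapped: Macrophage_2 had a mean of 8040.5 CPM, type 2 conventional dendritic cells (cDC2) of 8004, Isg+_Macrophage of 7758 and monocytes of 4031. T_cell_3 was lowest at 217 ± 222 CPM. Cells were thinned to 500 UMIs, and those with fewer were left out. Aachen kept 2822 of its 3044 resident macrophages and 1389 of its 1539 T cells. After thinning, 91.6% to 98.3% of resident macrophages and 98.7% to 100% of cDC1 held a Cst3 UMI, against 4.30% to 18.9% of T cells. Unthinned, these shares were 99.6% to 100% of resident macrophages and 20.3% to 35.6% of T cells, at median depths of 889 to 4499 UMIs in resident macrophages and 973 to 3396 in T cells.

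Cathepsin S (Ctss), the protease that completes invariant chain removal in macrophages and dendritic cells and stays active at neutral pH, had a narrow macrophage peak. Macrophage_2 held 3475, 2909.6 and 3324 CPM (3236 ± 293), and the other macrophage clusters lay between 2009 and 2877 CPM with overlapping values. Every facility value of Malat+_Macrophage lay above those of monocytes (1462 ± 138 CPM), and every value of monocytes above those of cDC2 (992 ± 87.0 CPM). Ctss was thus ordered without overlap from macrophages through monocytes to cDC2, and its mean was lowest in NK_cell_2 at 82.8 CPM. Within facilities the lowest cluster was neutrophils in Aachen and group 2 innate lymphoid cells (ILC2) in Bonn and Hamburg.

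Cathepsin C (Ctsc), which activates the serine proteases of cytotoxic and neutrophil granules by removing a dipeptide, was also highest in macrophages. Its means were 1404 ± 864 CPM in Malat+_Macrophage and 1396 ± 208 in Macrophage_2. The first of these rested on Hamburg, where Malat+_Macrophage had 2362 CPM against 681 in Aachen and 1171 in Bonn. Monocytes had 558 ± 103 CPM, below every facility value of Macrophage_1. NK cells, whose granzymes depend on cathepsin C, held 184 CPM in NK_cell_1 and 125 CPM in NK_cell_2.

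The exopeptidases cathepsin H (Ctsh) and cathepsin Z (Ctsz) and the endopeptidase legumain (Lgmn), which also processes other cathepsins, all had their highest mean in Macrophage_2 and the next in Macrophage_3. Ctsh had 1154 ± 152 CPM in Macrophage_2 and 1118 ± 88.4 in Macrophage_3, close to pDC with 1352 CPM at Bonn and 862 at Hamburg. Without Aachen or without Hamburg, pDC had the highest Ctsh mean, at 1107 or 1352 CPM. Without Hamburg, Macrophage_3 had the highest mean of Ctsz (1001 CPM) and of Lgmn (719 CPM). After thinning to 500 UMIs per cell it also had the highest Lgmn mean (786 CPM). Ctsh reached B cells at means of 325 to 365 CPM, while T_cell_3 had 19.3 CPM. Ctsz had 977 ± 66.2 and 945 ± 100 CPM in these macrophage clusters and 220 to 340 CPM in B cells. Lgmn had 775 ± 188 and 762 ± 75.2 CPM there, and fell without overlap between Malat+_Macrophage (524 ± 43.4 CPM) and the clusters after it. Lgmn in monocytes (182 ± 11.8 CPM) and in cDC1 (21.0 CPM) thus lay below every macrophage cluster. In Aachen, where the neutrophil cluster held 25 cells, Lgmn and Ctsb were listed at 0 in that cluster.

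Cathepsin B (Ctsb), a broad lysosomal peptidase, had 2562 and 2731 CPM in pDC of Bonn and Hamburg (2646 ± 120, SD, n = 2). Aachen had fewer than 10 pDC and gave no value there. Macrophage_3 had 1484, 2376 and 2737 CPM (2199 ± 645), and these values overlapped those of pDC. Monocytes had 1204 ± 452 CPM, with every facility value below those of pDC. The mean was lowest in B_cell_1 at 75.9 CPM, which was the lowest cluster in Bonn and Hamburg but not in Aachen.

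Cathepsin L (Ctsl), an endopeptidase with roles in antigen processing and autophagy, had a single high cluster. It had 1504 and 1673 CPM in pDC of Bonn and Hamburg (1588 ± 120, SD, n = 2). The next clusters were neutrophils with 157 ± 51.8 CPM, Macrophage_1 with 117 ± 54.3 and Macrophage_3 with 111 ± 33.4, so pDC lay above all of them without overlap. The pDC cluster held 99 cells in all. In cDC1, Ctsl was at 5.92 CPM, which set these dendritic cell types at opposite ends of the order.

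Cathepsin D (Ctsd), the aspartic protease, was ordered unlike the rest. It was highest in NK_cell_2 (980.2, 1147 and 830.5 CPM, 986 ± 158) and NK_cell_1 (880.2, 1169.7 and 598 CPM, 883 ± 286), followed by T_cell_2 (544 ± 149 CPM). Macrophage_2 had 218 CPM, Macrophage_1 150, monocytes 161 and cDC1 22.3 ± 1.76, the lowest cluster in each facility. Ctsd in T cells was at 128% to 329% of its level in the resident macrophages of the same library, whereas the 12 resident macrophage markers in T cells were at 0.379% to 9.70%. Thinned to 500 UMIs, 27.6% to 40.7% of NK cells, 14.1% to 21.0% of T cells and 5.71% to 8.83% of resident macrophages held a Ctsd UMI, and 55.7% to 91.3%, 32.0% to 70.8% and 11.7% to 48.9% did so unthinned. In cDC1, at median depths of 3469 to 11738 UMIs, the thinned share was 0% to 0.741%. In the GENCODE vM21 annotation another protein-coding gene, Gm49369 (chromosome 7, 142371096 to 142382667), lies on the same strand and covers 6757 bases of Ctsd at its 3′ end. The count table had no column for Gm49369, the annotation release used for counting was not given in the sources used here, and the level of Ctsd is therefore uncertain.

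**Figure D2:**
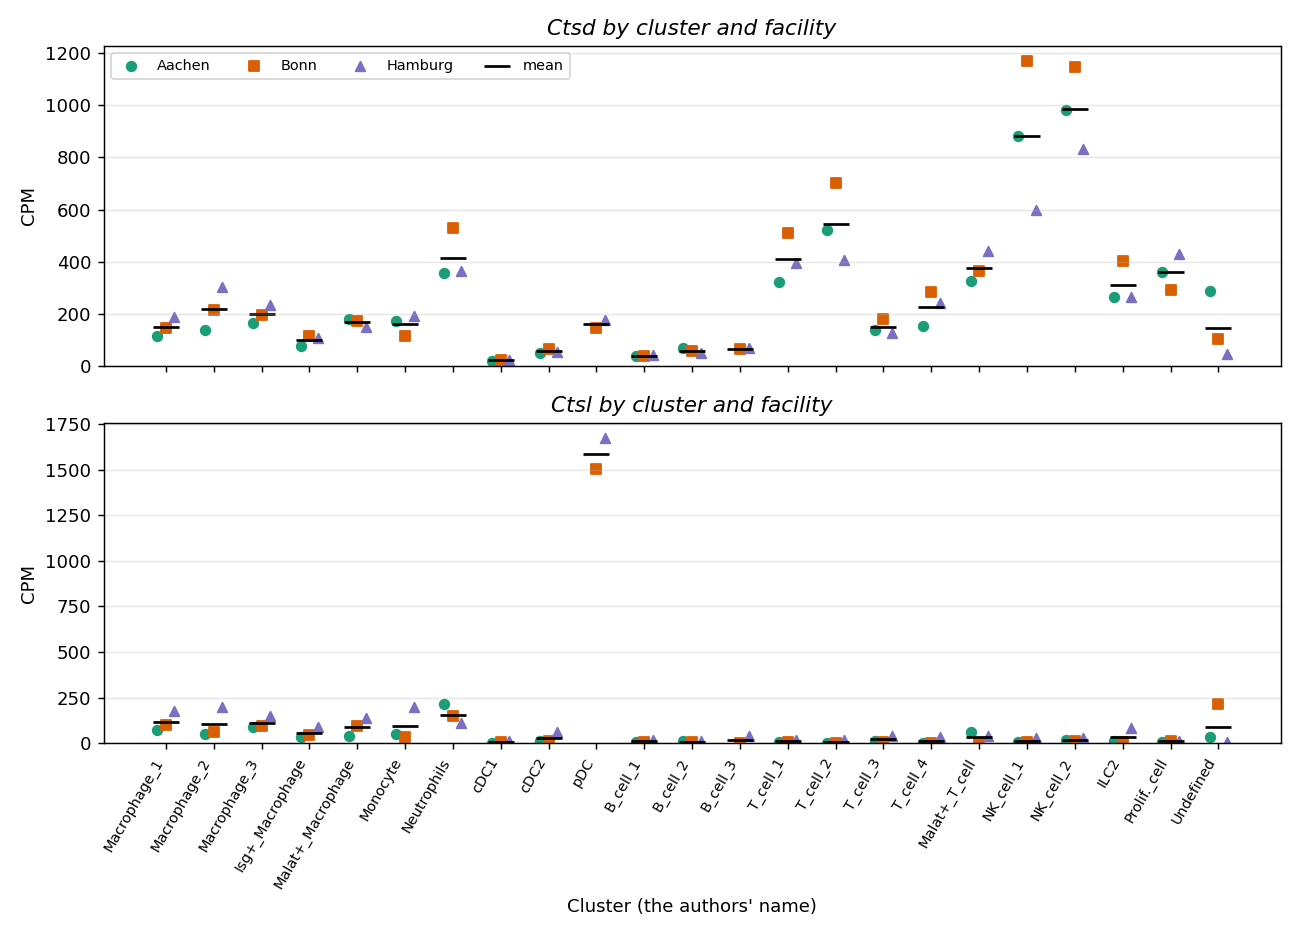
CPM of Ctsd (top) and Ctsl (bottom) in each cluster, with a point for each facility and a bar for the mean. The NK clusters hold the highest Ctsd means (883 and 986 CPM) and macrophage means lie at 218 CPM or below, while Ctsl stands at 1504 and 1673 CPM in pDC with all other points under 250 CPM.

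Over the 20 named clusters with at least 10 cells at every facility, which left out pDC and B_cell_3, the log2 CPM of most proteases moved together. Pearson r was 0.96 between Ctsc and Lgmn and between Ctsh and Ctsz, and 0.95 between Ctss and both Ctsc and Ctsh. Ctsd correlated with the other members between −0.47 (Ctsh) and 0.11 (Ctsl). Cst3 correlated with Ctsz at 0.87 and with Ctsl at 0.54. These values are descriptive, since the clusters share libraries and depth. Among 10657 genes, the closest patterns were those of Ly86 for Ctsh (r = 0.99), Ifnar2 for Ctsb (0.97), Plbd1 for Cst3 (0.97), Unc93b1 for Ctsz (0.96) and Pla2g7 for Ctsl (0.94). The closest pattern to Ctsd was Gnptg at a lower r of 0.88.

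In resident macrophages the members were then compared between compartments, to ask whether the proteolytic equipment of these cells differed with their position in the kidney. Cst3 was higher in the medulla than in the cortex at every facility, whereas none of the 8 proteases tested passed the threshold. Its log2 fold change was 0.87 for the whole medulla, 1.02 for the OM and 0.72 for the IM. The closest protease was Ctsb at 0.30, and Ctss, Ctsh, Ctsz and Ctsd had estimates between −0.06 and 0.08.

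Cst3 in resident macrophages was at 7630.1 CPM in the cortex of Aachen, 7747 at Bonn and 5588 at Hamburg (6988 ± 1215, SD, n = 3). In the same order of facilities, OM macrophages held 19229, 12755 and 10482 CPM (14155 ± 4538) and IM macrophages held 9136, 15998 and 9081 CPM (11405 ± 3978). Every medulla library lay above every cortex library, which was so for 0.299% of the 8687 genes tested, and Cst3 was the only member with that separation. For 0.564% of the genes, none of them a member, every medulla library lay below every cortex library. On the scale after TMM normalization the cortex of Aachen (9884 CPM) fell within the range of the medulla, whose lowest library was the IM of Hamburg (8803 CPM). In edgeR's quasi-likelihood test with facility as a block, the log2 fold change of medulla over cortex was 0.87 ± 0.18 (SE, adjusted p = 0.0342). Within facilities the log2 differences were 0.81 in Aachen, 0.93 in Bonn and 0.76 in Hamburg. The test called 1.24% of all genes, with 0.645% called as higher in the medulla, and 1 of the 9 members that passed the filter on low counts (Ctsk did not pass).

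Taken by compartment, Cst3 was higher in the OM than in the cortex (1.02 ± 0.21, edgeR adjusted p = 0.0359) where 0.852% of genes were called, 0.53% as higher. Between IM and cortex the estimate was 0.72 ± 0.21, with an unadjusted p of 0.00332 and an edgeR adjusted p of 0.244, in a comparison that called 0.196% of genes. OM and IM were not separated for Cst3 (0.30 ± 0.21, edgeR adjusted p = 0.9996), and no gene was called there, with 267 genes at an unadjusted p under 0.05 and 0 by DESeq2. Which part of the medulla was higher depended on the facility: the OM exceeded the IM in Aachen and Hamburg, and the IM exceeded the OM in Bonn.

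The Cst3 call was lost in several alternative fits, with the direction kept in each. Leaving out Hamburg kept the estimate at 0.91 with an adjusted p of 0.298, and leaving out Macrophage_3 gave 0.71 with an adjusted p of 0.181. The call was also lost without the facility block (0.87, adjusted p = 0.99999), with Malat+_Macrophage added (0.84, adjusted p = 0.0604) and without each of 6 single libraries, the cortex and OM of Aachen and Hamburg, the cortex of Bonn and the IM of Hamburg (adjusted p of 0.0629 to 0.163).

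Macrophage_3, the macrophage cluster with the highest Cst3 level, took up very different shares of the resident macrophages. Its share in Aachen, Bonn and Hamburg was 0%, 7.05% and 0% of cortical, 44.7%, 42.9% and 23.0% of OM and 1.17%, 43.1% and 15.4% of IM resident macrophages. Within Macrophage_1, the cortical Cst3 levels were 7570.3, 9414 and 5812 CPM, the OM levels 17937, 13042 and 9863 CPM and the IM levels 8884, 16196 and 9487 CPM. Each facility had both of its medulla values above its cortex value, although the IM of Aachen was below the cortex of Bonn. At Bonn, the Macrophage_1 values of cortex and OM rested on 24 and 30 cells. The fit within Macrophage_1 gave 0.75 ± 0.17 (edgeR adjusted p = 0.0260), with 0.516% of genes called and 0.272% as higher, and DESeq2 gave an adjusted p of 0.427. Without Aachen or without Hamburg the edgeR adjusted p was 0.0970 or 0.241.

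Within Macrophage_2, the cortical Cst3 levels were 7972, 7722 and 5301 CPM, the OM levels 13534, 9112 and 6869.7 CPM and the IM levels 9428, 8121 and 5344 CPM. These ranges overlapped, and the estimate was 0.29 ± 0.12 (unadjusted p = 0.0169, edgeR adjusted p = 0.717) with 0.02% of genes called. Macrophage_3 could be followed in a cortex only at Bonn, on 38 cortical cells. There Cst3 went from 9953 CPM in cortical cells to 15478 in OM cells and 17982 in IM cells, without a test. Per cell, after thinning to 500 UMIs, the median Cst3 count in Aachen, Bonn and Hamburg was 3, 4 and 2 in cortical, 9, 5 and 4 in OM and 4, 7 and 4 in IM macrophages. The share of resident macrophages without a Cst3 UMI after thinning was 4.96%, 5.57% and 16.4% in the cortex and 0.312% to 6.95% in the medulla, so the range of the medulla overlapped that of the cortex.

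**Figure D3:**
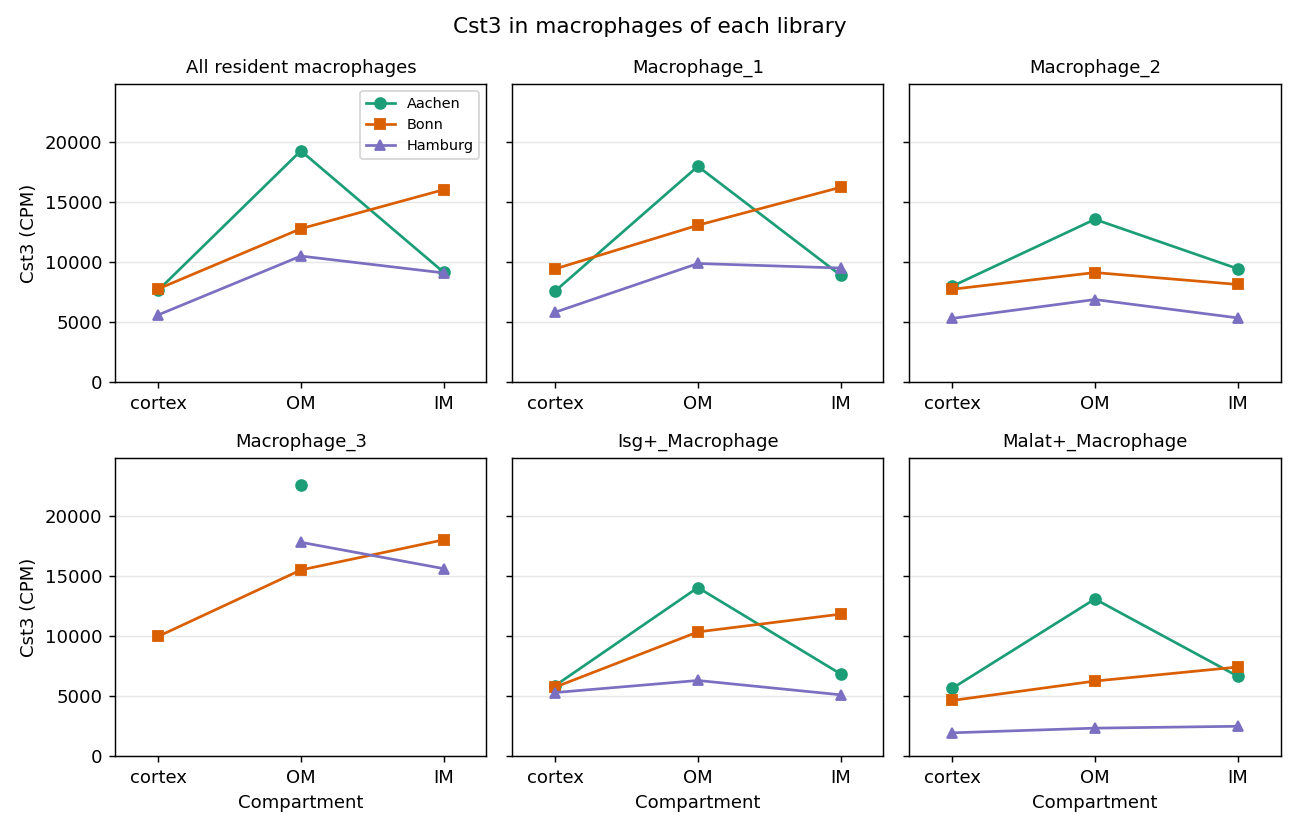
Cst3 CPM by compartment in all resident macrophages and in each macrophage cluster, with a colored line for each facility (libraries with fewer than 10 cells of a cluster have no point). In all resident macrophages the cortex points lie between 5588 and 7747 CPM and the medulla points between 9081 and 19229 CPM, the curves of Aachen peak in the OM, and those of Bonn are highest in the IM except in Macrophage_2.

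Transcripts on the kidney tubule marker list, mainly Fxyd2, were higher in the same libraries. The 13 tubule markers took 0.390 to 0.568 of every 10000 UMIs of cortical resident macrophages, 3.05 to 4.63 in OM libraries and 0.870 to 8.06 in IM libraries. Fxyd2, which encodes a regulatory subunit of the sodium pump, was at 0.211 to 0.248 in the cortex and 0.457 to 6.22 in the medulla, and was the larger part in each medulla library and in the cortex of Bonn. The other 12 markers together were at 0.142 to 0.356 in the cortex and 0.209 to 1.85 in the medulla, and went from 0.356 in the cortex to 0.273 in the OM at Aachen. Within Macrophage_1 alone, Fxyd2 was at 4.27 in the cortex of Bonn, which held 24 such cells, against 0.200 and 0.234 in the cortex of Aachen and Hamburg. In other classes Fxyd2 reached at most 0.451 in T cells, 0.547 in B cells and 1.28 in cDC2, each in the OM of Aachen. In the IM of Bonn the other 12 markers were at 2.71 in T cells and 3.39 in B cells, against 1.85 in resident macrophages. All 13 markers together reached 5.11 in an OM library of monocytes and 8.50 in an IM library of neutrophils. Without the resident macrophages that held any of the 13 markers, 97 of 642 cells were left in the IM of Bonn. Cst3 in this fit was at 0.66 (edgeR adjusted p = 0.245), and without the macrophages that held any of the other 12 its adjusted p was 0.0459. The markers of cDC2 were at 4.13 to 6.43 of every 10000 UMIs in cortical, 7.78 to 11.1 in OM and 4.23 to 11.9 in IM libraries. The part of either signal in the Cst3 difference was not tested.

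The proteases of resident macrophages showed smaller differences. Ctsb levels in cortex, OM and IM were 1092, 1295 and 1182 CPM at Aachen, 1758, 2426 and 2039 at Bonn and 1603, 2095 and 2011 at Hamburg. Each facility had its cortex lowest, and all Aachen values lay below those of Bonn and Hamburg, so the compartments overlapped. The Ctsb estimate was 0.30 ± 0.11 (unadjusted p = 0.0197, edgeR adjusted p = 0.317). Ctsc, at 0.17 below the cortex, had its lowest library in the OM of Aachen with 803 CPM against 1128 to 1488 in the other 8 libraries, and its SE was 0.13. Ctss ranged from 2297 to 3304 CPM over the 9 libraries (−0.06 ± 0.11), Ctsz from 764 to 1007 (0.08 ± 0.11) and Lgmn from 602 to 773 (0.15 ± 0.11). Ctsh (−0.03 ± 0.11) and Ctsd (0.03 ± 0.13) were close to 0. Ctsl was at 158 to 190 CPM in Hamburg and 60.7 to 93.8 CPM in Aachen and Bonn, and its cortex was the highest library at Hamburg and the lowest at Bonn (0.15 ± 0.16). The median log2 fold change of the 9 members was 0.08, beside 0.01 over all genes tested.

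The number of Cst3 UMIs per UMI of the 8 cysteine proteases (Ctsb, Ctsc, Ctsh, Ctsk, Ctsl, Ctss, Ctsz and Lgmn) was higher in medullary resident macrophages. The ratio was 0.717 to 0.893 in the 3 cortex libraries. In Aachen, Bonn and Hamburg it was 2.49, 1.30 and 1.20 for OM and 1.07, 1.96 and 1.08 for IM, so the medulla lay above the cortex without overlap. The proteases took 0.780% to 0.890% of the UMIs in the cortex and 0.771% to 0.978% in the medulla, which overlapped, whereas Cst3 took 0.559% to 0.775% and 0.909% to 1.92%. All members together made up 1.36% to 1.69% of resident macrophage UMIs in the cortex and 1.78% to 2.71% in the medulla. In cDC2 the ratio was 1.83 to 2.05 in the cortex and 2.04 to 3.77 in the medulla, and in monocytes it was 0.670 to 0.898 and 0.683 to 1.56, with overlap in both. The ratio counts transcripts and not protein, and is given without a test. Its numerator is the Cst3 count that already separated the same macrophage libraries, so the ratio is not separate evidence. The share of other gene ratios with such a separation was not computed.

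**Figure D4:**
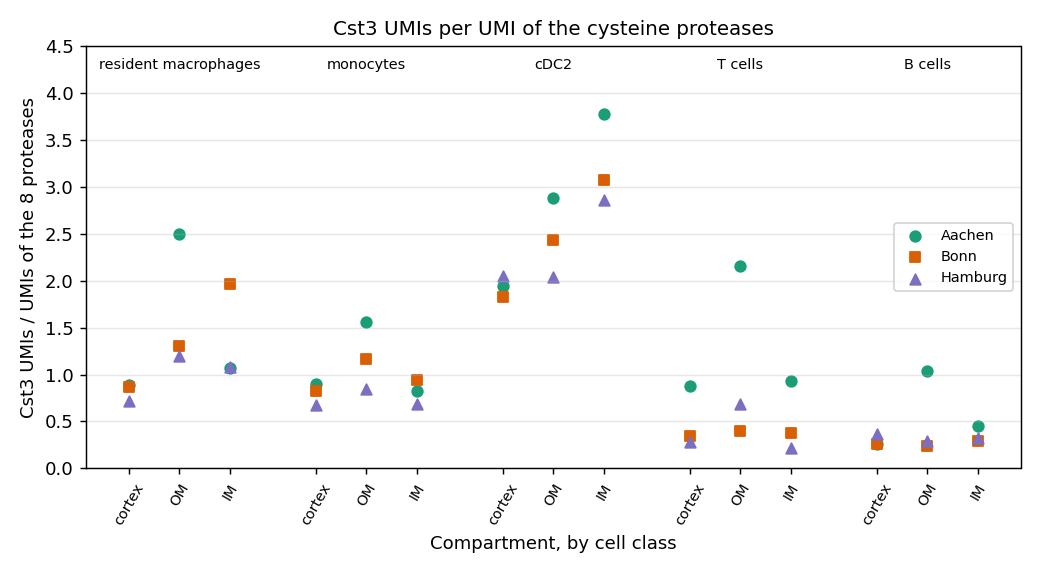
Cst3 UMIs divided by the summed UMIs of the 8 cysteine proteases (vertical axis, a ratio) for each library, by compartment and cell class, with a symbol for each facility. In resident macrophages the cortex points lie under 0.9 and all medulla points above 1, cDC2 reach 3.77 in the IM of Aachen, and T and B cells stay under 0.9 except in Aachen.

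In the other cell classes no member passed the test between medulla and cortex, although the Cst3 estimate was above 0 in each. The background shares of called genes were 0.332% in monocytes, 0.304% in cDC2, 0.0335% in T cells and 0.0898% in B cells. In cDC2, Cst3 levels in cortex, OM and IM were 6224, 8861 and 9387 CPM at Aachen, 6436, 7272 and 9692 at Bonn and 6984, 6773 and 9142 at Hamburg. Each facility had its IM highest, while the OM of Hamburg lay below its own cortex. The estimate for Cst3 was 0.44 ± 0.11 (unadjusted p = 0.000835, edgeR adjusted p = 0.147), and with no filter on low counts the adjusted p was 0.0340. Ctsc in cDC2 went the other way, at 302, 219 and 132 CPM in cortex, OM and IM of Aachen, 439, 257 and 324 at Bonn and 538, 439.9 and 346 at Hamburg. Each facility had its cortex highest, the ranges overlapped between facilities, and the estimate was −0.50 ± 0.17 (unadjusted p = 0.00939, edgeR adjusted p = 0.593). Ctsl did not pass the filter in cDC2.

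In monocytes Cst3 was highest in the OM of each facility, at 5918, 5166 and 4063 CPM, against 3601, 4096 and 3255 CPM in the cortex and 3670.1, 4165 and 3333 CPM in the IM. The estimate for the medulla was 0.22 ± 0.11 (edgeR adjusted p = 0.9992). The resident macrophage markers in monocytes were also highest in the OM of each facility, at 51.5, 44.1 and 26.3 of every 10000 UMIs, against 27.7, 42.8 and 24.9 in the cortex, and their part in the Cst3 values was not tested. The Ctsl estimate in monocytes was −0.51 ± 0.24 (unadjusted p = 0.0387, edgeR adjusted p = 0.9992), with 0 to 78.6 CPM in Aachen and Bonn and 169.9 to 236 CPM in Hamburg. For Ctsz the estimate in monocytes was −0.25 ± 0.15 (edgeR adjusted p = 0.9992).

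In T cells the Cst3 values separated by facility. For cortex, OM and IM they were 496, 1655 and 937 CPM at Aachen, 159, 153 and 159 at Bonn, and 107, 274 and 91.9 at Hamburg. Only Aachen showed more Cst3 in both medullary compartments, and the estimate was 0.69 ± 0.21 (unadjusted p = 0.00476, edgeR adjusted p = 0.563). In Aachen the resident macrophage markers in T cells stood at 4.06% to 9.70% of their level in the resident macrophages of the same library and Cst3 at 6.51% to 10.3%, against 0.379% to 0.665% and 0.991% to 2.62% in Bonn and Hamburg, and the part of macrophage RNA in the T cell values was not tested. Ctss in T cells followed the same facility pattern, with 209.8 to 375 CPM in Aachen and 60.8 to 112 CPM elsewhere (0.35 ± 0.13, edgeR adjusted p = 0.721). In B cells the Cst3 estimate was 0.32 ± 0.28 and turned to −0.13 without Aachen, where the OM held 1447 CPM beside 315 to 550.1 CPM in the other 8 libraries. The resident macrophage markers in B cells were at 16.4 of every 10000 UMIs in the OM and 11.6 in the IM of Aachen, against 4.14 to 5.79 in the other 7 libraries, and their part in the Cst3 values was not tested. Ctsl in B cells was at 4.44 to 13.8 CPM in the cortex and 8.20 to 20.5 CPM in the medulla (0.71 ± 0.32, unadjusted p = 0.0398, edgeR adjusted p = 0.9995).

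The medulla effect itself was compared between resident macrophages and other classes by an interaction test. For Cst3 it exceeded that in cDC2 by 0.38 ± 0.27, that in T cells by 0.24 ± 0.79 and that in B cells by 0.41 ± 0.30 on the log2 scale, all with an edgeR adjusted p of 1. No member was called in any of the 3 tests, which called 0.21%, 0% and 0.0206% of all genes, with 406 genes at an unadjusted p under 0.05 in the test against T cells. The Cst3 difference was therefore not shown to be particular to resident macrophages.

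**Figure D5:**
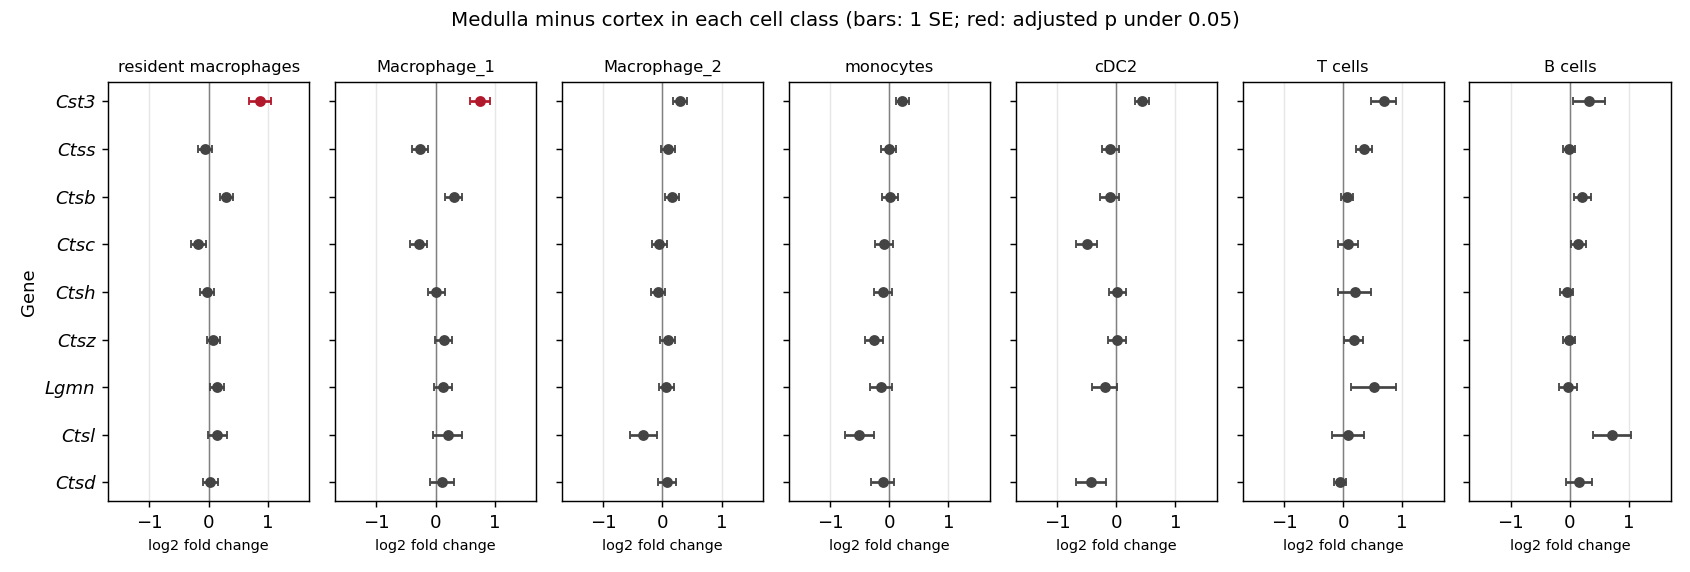
Log2 fold change of medulla over cortex (horizontal axis) of 9 members in resident macrophages, 2 of their clusters and 4 other classes, with bars of 1 SE and red for an adjusted p under 0.05. Cst3 is red in resident macrophages (0.87) and in Macrophage_1 (0.75), its points lie to the right of 0 in all panels, and Ctsl has no point in cDC2.

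The wider lysosomal system of resident macrophages was read from 7 gene lists in the same fit of medulla over cortex, which called 1.24% of all genes. Among 6 other cathepsins, 5 were tested and cathepsin F (Ctsf) was the one called, with cortex, OM and IM levels of 27.7, 35.7 and 23.6 CPM at Aachen, 27.1, 65.9 and 55.8 at Bonn and 26.2, 49.96 and 43.7 at Hamburg (0.87 ± 0.20, edgeR adjusted p = 0.0441). The IM of Aachen lay below the cortex and the other 5 medulla libraries above it. Among 30 other lysosomal hydrolases, 28 were tested and the tartrate-resistant acid phosphatase Acp5 was lower in the medulla (−1.72 ± 0.32, edgeR adjusted p = 0.0176). Acp5 levels in cortex, OM and IM were 26.4, 2.23 and 23.6 CPM at Aachen, 48.2, 2.20 and 6.95 at Bonn and 250, 94.4 and 170 at Hamburg. Each facility had its cortex highest, and the ranges of cortex and medulla overlapped between facilities. Of 13 cystatins and other inhibitors of cysteine proteases 6 were tested, and Serpina3g, an intracellular serpin that can inhibit cysteine cathepsins, was lower (−1.51 ± 0.27, edgeR adjusted p = 0.0176). Serpina3g was low throughout, at 16.6 to 37.8 CPM in the cortex and 4.27 to 18.3 CPM in the medulla, with the cortex highest at each facility. The related inhibitors Ctla2b (0.92 ± 0.22, edgeR adjusted p = 0.0673) and Ctla2a (−1.49 ± 0.41, edgeR adjusted p = 0.113) had estimates of opposite sign and did not pass.

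No gene was called among 20 tested lysosomal membrane and matrix proteins, 15 tested subunits of the vacuolar ATPase that acidifies the lysosome or 9 tested genes of lysosomal sorting and its transcription factors. The number at an unadjusted p under 0.05 was 5, 0 and 0 in these lists and 878 of all 8687 genes, and their median log2 fold changes were −0.03, 0.02 and 0.03, beside 0.01 over all genes. Tfeb itself was at −0.24 ± 0.17 (edgeR adjusted p = 0.716). Among 9 genes of antigen presentation and endosomal sensing, some of them for substrates of the cathepsins, the RNA sensor Tlr7 was higher in the medulla (1.09 ± 0.19, edgeR adjusted p = 0.0171). Its levels in cortex, OM and IM were 14.5, 34.6 and 16.2 CPM at Aachen, 41.0, 98.8 and 84.7 at Bonn and 32.5, 59.7 and 69.0 at Hamburg, so each facility had its cortex lowest. The invariant chain Cd74, the substrate of cathepsin S, was at 0.13 ± 0.08 (edgeR adjusted p = 0.664).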

How the data were processed

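The authors sorted CD45+ cells, aligned reads to mm10 with Cell Ranger and processed them in Seurat, removing cells outside 200 to 4000 genes or above 20% mitochondrial content; clusters were named by the authors. Doublet treatment was not given in the sources used here, and no doublets were removed here. The values deposited by the authors are estimated counts per gene and cell, not normalized: whole UMIs in Aachen and Bonn, but only 0.118% of nonzero values are whole in Hamburg, so sums were rounded. Labels give 1 sample per compartment, and the deposited cell annotation splits each by facility. 0 columns of per-sample values were left unused.

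Counts were summed per cell class and library, filtered with filterByExpr, TMM-normalized and tested with edgeR 4.0.16 (R 4.3.3, quasi-likelihood, facility as a block, Benjamini-Hochberg over all genes tested, threshold 0.05). SE is the absolute log2 fold change divided by the square root of F. The block was kept because facility marks shared processing. Library profiles, centered on the mean of their compartment, correlated at 0.804 to 0.909 within and −0.857 to 0.434 between facilities (8445 genes). That centering lowers the correlations between facilities by construction, so their range is no support for the block. Alternatives were DESeq2 1.42.0, no filter, no block, thinning to 500 UMIs with cells below that depth left out, other macrophage definitions and left-out libraries. Further ones, leaving out cells with tubule markers, were added after the data were seen. The fits were tested on simulated data with known changes.

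The members and gene lists were chosen with earlier results of these data known. The named genes are all members, in each list at most the 4 with the smallest p in resident macrophages, and for each member the 3 closest of the genes with at least 200 UMIs by Pearson correlation of log2 CPM (prior count 2), of which the closest is printed for 6 members and is not reported here for Ctsc, Ctss and Lgmn. Clusters with fewer than 10 cells in a facility gave no value there. Overlapping genes were read from GENCODE vM21 and sequences from RefSeq. Tools included Python 3.11.15 with numpy 2.4.6, scipy 1.17.1 and pandas 2.3.3.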

Additional observations from a re-analysis of the deposited data

Results flagged for a closer look

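Ctsz, the carboxypeptidase cathepsin Z, had differences of opposite sign in resident macrophages and monocytes, neither of which passed the test. In resident macrophages the log2 difference of medulla minus cortex was 0.08, 0.06 and 0.09 in Aachen, Bonn and Hamburg. In monocytes it was −0.59, −0.06 and −0.26. The sign was positive at all 3 facilities in one class and negative in the other, and the mean gap between the classes was 0.38, a difference that was not tested. The Aachen monocyte value rested on 28, 29 and 32 cells in cortex, OM and IM. Ctsz was picked by screening each member for such signs, in this pair of classes and in Macrophage_1 against Macrophage_2. It was the only one flagged, and the share of all genes with such signs was not computed.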

How the results depend on the processing

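The number of genes called in resident macrophages depended strongly on the settings. For medulla over cortex 108 genes were called, against 48 by DESeq2, 382 with no filter, 0 with no facility block, 26 after thinning, 6 without Macrophage_3, 68 with Malat+_Macrophage, 10 without cells holding tubule markers, 64 without cells holding tubule markers other than Fxyd2, 6 to 237 when a facility was left out (54 without Bonn, lowest without Hamburg) and 14 to 262 when a library was left out (lowest without the cortex of Bonn, highest without the IM of Aachen). For OM over cortex the number was 74, against 330 with no filter, 0 with no block, 39 after thinning, 0 without Macrophage_3, 32 with Malat+_Macrophage, 7 and 44 in the respective tubule settings and 5 to 110 without a facility and 8 to 139 without a library. For IM over cortex it was 17, against 3 by DESeq2, 279 with no filter, 0 with no block, 0 after thinning, 29 without cells holding T or B cell markers, 2 without Macrophage_3, 4 with Malat+_Macrophage, 0 in both tubule settings and 0 to 207 without a facility and 2 to 189 without a library. OM against IM gave 36 with no filter, 1 without cells holding T or B cell markers and 0 to 2 in the leave-outs.

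The Cst3 estimate for medulla over cortex in resident macrophages was positive under every setting run. It lost its call at 0.87 with no replicate block by facility, 0.71 without Macrophage_3, 0.84 with Malat+_Macrophage and 0.66 without tubule marker cells, and ranged from 0.81 to 0.91 without a facility and from 0.68 to 0.999 without a library. For OM over cortex Cst3 lost it at 1.09 with no block, 0.78 without Macrophage_3, 0.98 with Malat+_Macrophage and 0.79 without tubule marker cells (0.76 to 1.15 without a facility and 0.66 to 1.25 without a library). For IM over cortex it gained the call at 0.72 with no filter (0.47 to 0.90 without a facility and 0.40 to 1.01 without a library), and for OM over IM it ranged from −0.15 to 0.67 and from −0.024 to 0.60. In Macrophage_1 Cst3 lost it at 0.74 by DESeq2 and 0.77 with no block (0.69 to 0.76). Members called in the other class fits, which include Macrophage_1, numbered 1, against 0 by DESeq2, 3 with no filter, 0 with no block and 0 to 2 in the leave-outs. The interaction tests called 0 members in each setting, and 4 to 5 members peaked in a macrophage cluster when a facility was left out. The cause of these changes was not tested. Settings that remove cells or libraries also rest on fewer of them, and the part of that smaller number was not tested either.

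Of 1513 other log2 fold changes of members, 1355 kept direction and call, 155 without a call changed sign, and 3 gained a call, all of Cst3 (T cells in 2 settings and cDC2 in 1). In T cells these were no filter (adjusted p = 1.51e-05) and without Bonn (0.98, adjusted p = 0.00537). With 3 facilities, few cells of some classes and lower depth in Aachen, absence of a call does not show that levels are equal.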
